A study of Homo sapiens with 12 samples.

Results

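RORγ binding in HCC70 cells was compared between vehicle and the RORγ antagonist XY018. The members were the regions called by chromatin immunoprecipitation sequencing (ChIP-seq) with an anti-RORγ serum on chromosomes 1 to 22 and X, 167264 with vehicle and 129954 with XY018, which together made 297218 of the 684829 regions in the 6 lists of the series. A region of either library was taken as kept, or shared, where it touched a region of the other library by at least 1 bp. Otherwise it was vehicle-only or XY018-only. HCC70 is an established cell line of triple-negative breast cancer (TNBC), and the labels give 24 h in vehicle or in 5 µM XY018, while the methods of the study name a lower concentration. The serum was raised in rabbit against a GST-fused piece of human RORγ. The other libraries of the series were ChIP-seq of SREBP2 and of the histone mark H3K27ac from the same line and treatments, with 6 input libraries. Each antibody and treatment had 1 library, so no difference below has a replicate check, no test was run, and all intervals are 95% intervals for counting error only.

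RORγ is a nuclear receptor that binds DNA as a monomer at ROR response elements (ROREs), in which an A/T-rich stretch precedes the hexamer AGGTCA. It drives genes such as BMAL1 and other members of the circadian clock in liver and other tissues, and its lymphoid form RORγt drives the genes of Th17 cells. Ligands that sit in its pocket, among them sterol intermediates and synthetic antagonists, change which coactivators or corepressors it holds, and need not remove it from DNA.

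Sequences at the summits that the results turn on are shown first, as the plus strand of GRCh37 (hg19) within 100 bp of a summit, the highest point of a region. The pair with the most vehicle fragments at their summits, among regions outside UTRs and with a local background under 2.5 fragments, were kept with XY018. They lay at chr18:11971-12171, in an intron of LINC02564, with 183 fragments, and at chr5:528705-528905, outside any gene and 3985 bp downstream of the start of ENSG00000250385, with 162 fragments. Capitals mark the GC box GGGCGG on either strand, the site of SP and KLF factors.
LINC02564: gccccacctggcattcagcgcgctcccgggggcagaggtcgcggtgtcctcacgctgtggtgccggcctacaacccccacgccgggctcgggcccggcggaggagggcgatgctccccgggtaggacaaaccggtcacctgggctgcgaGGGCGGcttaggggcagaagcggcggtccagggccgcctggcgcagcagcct
ENSG00000250385: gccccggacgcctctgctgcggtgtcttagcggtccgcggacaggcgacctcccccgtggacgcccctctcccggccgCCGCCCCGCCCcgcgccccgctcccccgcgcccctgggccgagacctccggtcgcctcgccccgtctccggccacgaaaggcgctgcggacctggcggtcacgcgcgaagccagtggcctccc

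Summits with the RORE core, a pattern of an A/T-rich stretch before AGGTCA or GGGTCA searched on both strands, are shown because they hold the element that the receptor is known to bind. Under the same limits the strongest kept one lay at chr13:27335035-27335235, outside any gene and 212 bp upstream of the start of GPR12, which encodes an orphan G protein-coupled receptor, with 69 fragments. A summit at CLOCK, which encodes the partner of BMAL1, lay at chr4:56412124-56412324, 125 bp upstream of the nearest start and inside a longer transcript, with 17 fragments. The summit of the XY018 region paired with it lay 775 bp away and did not hold the RORE core. The strongest vehicle-only one lay at chr5:2002319-2002519, in an intron of ENSG00000248994, with 13 fragments. Capitals mark the RORE core.
GPR12: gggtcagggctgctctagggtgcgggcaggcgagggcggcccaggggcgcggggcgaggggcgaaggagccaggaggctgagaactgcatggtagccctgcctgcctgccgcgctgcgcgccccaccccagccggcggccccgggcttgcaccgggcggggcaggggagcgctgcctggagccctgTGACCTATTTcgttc
CLOCK: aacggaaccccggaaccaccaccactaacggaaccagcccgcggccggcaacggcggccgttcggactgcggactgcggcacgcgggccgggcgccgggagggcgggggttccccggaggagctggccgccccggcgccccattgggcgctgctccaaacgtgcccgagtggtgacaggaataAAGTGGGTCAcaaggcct
ENSG00000248994: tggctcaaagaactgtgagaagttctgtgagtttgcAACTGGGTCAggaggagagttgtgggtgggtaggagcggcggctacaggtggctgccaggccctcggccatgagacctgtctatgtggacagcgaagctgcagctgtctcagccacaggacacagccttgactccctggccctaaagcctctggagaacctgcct

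Vehicle-only summits are shown by 2 more. The first, at chr7:2539911-2540111, 12152 bp upstream of LFNG, which encodes a glycosyltransferase that modifies Notch receptors, had 22 fragments, and its capitals mark the nuclear receptor hexamer AGGTCA. The second, at chr10:42375825-42376025, had 21 fragments, and its capitals mark runs of the satellite word ATTCCATTCC. Both were the strongest vehicle-only summits outside UTRs and with a local background under 2.5 fragments.
LFNG: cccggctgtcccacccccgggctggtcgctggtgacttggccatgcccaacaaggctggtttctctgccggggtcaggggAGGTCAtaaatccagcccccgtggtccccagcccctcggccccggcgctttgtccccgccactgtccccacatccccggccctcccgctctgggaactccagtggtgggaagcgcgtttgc
near KSR1P1: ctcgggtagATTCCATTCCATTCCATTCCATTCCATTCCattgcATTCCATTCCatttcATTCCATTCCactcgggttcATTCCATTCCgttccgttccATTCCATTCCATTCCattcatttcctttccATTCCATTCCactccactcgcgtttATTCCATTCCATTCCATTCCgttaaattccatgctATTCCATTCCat

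Of the strongest XY018-only summits with a local background under 2.5 fragments 2 are shown. They lay at chr17:74127133-74127333, outside any gene and 7280 bp upstream of RNF157-AS1, with 24 fragments, and at chr9:12775774-12775974, in a coding exon of LURAP1L, with 22 fragments. Neither held the hexamer or the satellite word, so no capitals are set.
RNF157-AS1: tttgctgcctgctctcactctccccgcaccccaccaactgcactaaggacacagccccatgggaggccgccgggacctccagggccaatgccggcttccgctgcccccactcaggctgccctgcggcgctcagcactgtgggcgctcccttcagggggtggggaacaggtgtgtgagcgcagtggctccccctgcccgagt
LURAP1L: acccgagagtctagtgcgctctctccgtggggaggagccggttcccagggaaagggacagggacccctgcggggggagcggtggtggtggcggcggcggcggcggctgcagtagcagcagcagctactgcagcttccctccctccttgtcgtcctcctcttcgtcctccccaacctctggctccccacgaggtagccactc

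Shared regions were those with high pileup. From the fold and −log10 p of each region the whole number of fragments at its summit was recovered, and this number is the pileup used here. Of the vehicle regions, 63.6% had no XY018 region and of the XY018 regions 52.3% had no vehicle region, 106379 and 68013 regions. The lists were called at a loose limit, and q was at most 0.01 at 55.5% of vehicle and 55.9% of XY018 regions. It was so at 41.1% of vehicle-only and 35.6% of XY018-only regions. Among regions with q of at most 1e-05, 80.6% of vehicle and 84.3% of XY018 regions were shared. The study counted high-confidence sites at stricter limits and describes little effect of XY018 on RORγ binding. Kept vehicle regions had a median of 11 fragments and vehicle-only regions a median of 6. Present XY018 regions had a median of 10 fragments and XY018-only regions a median of 5. Both kinds of single-library region were narrow, with median widths of 215 bp and 209 bp, against 409 bp and 388 bp for shared regions. The genome-wide background over a position was 0.787 fragments with vehicle and 0.712 fragments with XY018, so depth was 0.905 times as high with XY018.

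The kept share of vehicle regions was 10.4% (10.0-10.8) at 3 to 4 fragments, 20.8% (20.4-21.3) at 6 and 33.2% (32.5-34) at 8. It was 45.1% (44.2-45.9) at 9 to 10 fragments, 74.3% (73.4-75.2) at 11 to 14 and 96.9% (96.4-97.4) at 15 to 19. Sharing thus passed from the exception to the rule within a narrow range of pileup. Of the 18436 vehicle regions with at least 20 fragments, 18415 had an XY018 region, a share of 99.9%, and 21 had none. Read the other way, 17655 of 17678 XY018 regions with at least 20 fragments had a vehicle region and 23 had none. In each class under 20 fragments the XY018 regions were shared more often than the vehicle regions, with 47.7% (46.7-48.8) at 8 fragments and 87.0% (86.2-87.7) at 11 to 14, and the list they were compared with was the longer one. About 50% of either list lay at 6 fragments or fewer (49.6% with vehicle and 49.95% with XY018).

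**Figure D1:**
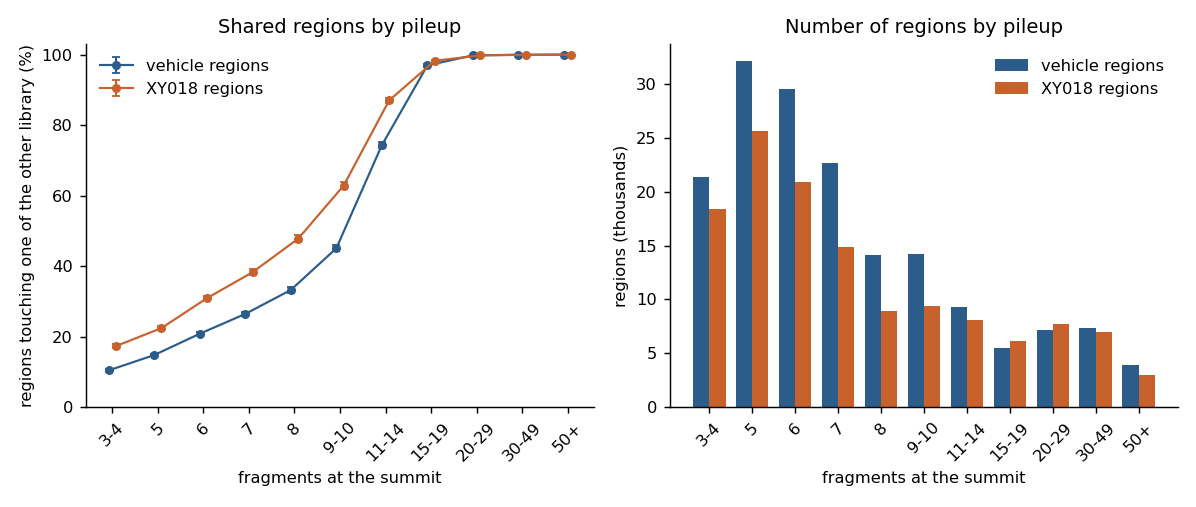
Left, percent of regions that touch a region of the other library (y axis) by the number of fragments at the summit (x axis), for vehicle (blue) and XY018 (orange) regions, with 95% counting intervals; right, the number of regions in each class in units of 1000. The vehicle curve passes from 10.4% at 3 to 4 fragments to 96.9% at 15 to 19, and most regions lie at its low end.

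Sites at transcript starts were kept more often than sites far from them. Within 100 bp of a start 84.9% of vehicle regions were kept. The share was 73.5% from there to 500 bp, 48.0% from there to 1000 bp and 34.3% at 1 to 5 kb, and beyond 100 kb it was 24.7%. XY018 regions showed the same order, from 87.1% within 100 bp to 32.3% beyond 100 kb. Promoters, taken from 1000 bp upstream to 100 bp downstream of a start, held 32.8% of kept and 6.72% of vehicle-only regions, and 32.9% of present and 7.38% of XY018-only regions.

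Distance and pileup moved together, so both were set side by side. At 6 to 8 fragments 48.2% (46.7-49.7) of vehicle regions within 500 bp of a start were kept, against 22.5% (22-22.9) of those over 10 kb away. At 9 to 14 fragments the shares were 85.0% (83.8-86.1) and 44.3% (43.3-45.3). At 15 to 29 fragments they were 99.6% and 95.9%, and little difference was left. Averaged over 10 classes of vehicle fold, the kept share of promoter regions was 15.8 percentage points (15.1-16.5) above that of regions over 10 kb from any start. Without classes the difference was 47.9 points. With classes it was 8.29 points among regions with q of at most 1e-05 and 6.81 points where sharing required summits within 100 bp.

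**Figure D2:**
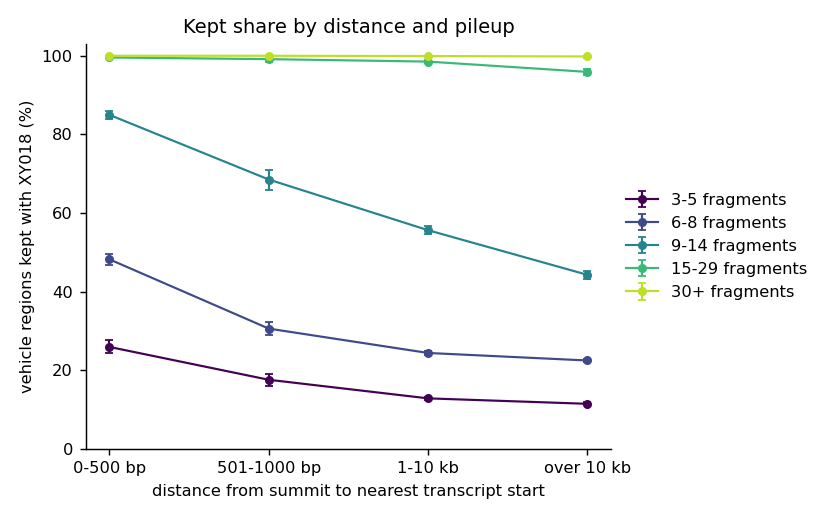
Percent of vehicle regions kept with XY018 (y axis) by distance from the summit to the nearest transcript start (x axis), a line for each class of fragments at the summit, with 95% counting intervals. At 6 to 8 fragments the line goes from 48.2% within 500 bp to 22.5% beyond 10 kb, and at 15 to 29 fragments it stays between 99.6% and 95.9%.

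At the same distance the kept share differed by the class of gene at the start, and so did pileup, for which these shares were not matched. Of vehicle regions within 500 bp of a start, 82.3% (81.7-82.9) were kept where the gene was protein-coding, 69.1% (67.5-70.8) where it was a long noncoding RNA and 66.5% (63.6-69.2) where it was a processed pseudogene, a copy made from a messenger RNA. At miRNA genes the share was 50.2% (44.1-56.2). At small nuclear RNA genes, which encode splicing RNAs and many copies of them, 16 of 105 regions were kept, 15.2% (8.97-23.6). Median pileup there was 6 fragments, against 16 at protein-coding, 10 at long noncoding RNA, 11 at processed pseudogene and 8 at miRNA starts. Counted by gene, XY018 regions were missing from 8.26% of the protein-coding, 19.1% of the long noncoding and 71.3% of the small nuclear RNA promoters that were called with vehicle.

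Kept regions also lay nearer to chromosome ends. The outer 5 Mb at each chromosome end, 7.58% of the length, held 28.0% of kept and 13.4% of vehicle-only regions, and 28.4% of present and 15% of XY018-only regions. By chromosome the kept share was highest on chromosome 19 at 43.2% and lowest on X at 28.9%. The regions of highest pileup were crowded in 1 place. Chromosome 5 held 52 of the 100 strongest vehicle regions and 4.73% of all. In its first 20 Mb the median local background at regions was 2.12 fragments with vehicle and 1.93 with XY018, against 0.952 and 0.856 over all chromosomes. This stretch was chosen after the values were seen, and the part of the raised background in its pileup was not tested.

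In sequence, summits of both kinds were richer in G/C than the DNA around them, and shared summits more so than single-library ones. Mean GC content within 100 bp was 64.9% at kept and 51.5% at vehicle-only summits, 65.1% at present and 52.4% at XY018-only summits, and 74.1% at vehicle summits with at least 20 fragments. Windows 1 kb from the same summits averaged 50.3% for kept, 44.2% for vehicle-only and 44.5% for XY018-only regions. Within classes of vehicle fold, kept summits were 6.15 points (6.04-6.26) higher in GC content, over the 9 of 10 classes that held vehicle-only regions. The GC box GGGCGG was present at 38.3% of kept, 8.94% of vehicle-only and 62.7% of strong vehicle summits, with 36.0% at protein-coding starts and 7.30% in windows 1 kb away.

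Alu words marked the single-library side. Alu repeats are short mobile elements present throughout human DNA, and 3 words of their consensus, CTGTAATCC, AGGTCAGGA and CACTCCAGC, were searched on both strands. At least 1 of the 3 words was present at 53.6% of vehicle-only and 48.5% of XY018-only summits, against 19.8% of kept and 0.70% of strong vehicle summits. The background was 13.9% in windows 1 kb from vehicle summits and 2.73% at protein-coding starts. A vehicle region with an Alu word at its summit was kept in 17.5% (17.2-17.7) of cases and a region without it in 49.7% (49.4-50.03). For XY018 regions the shares were 26.6% (26.2-27) and 58.8% (58.5-59.1). Per the methods of the study, tags were kept where they mapped to a single place.

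**Figure D3:**
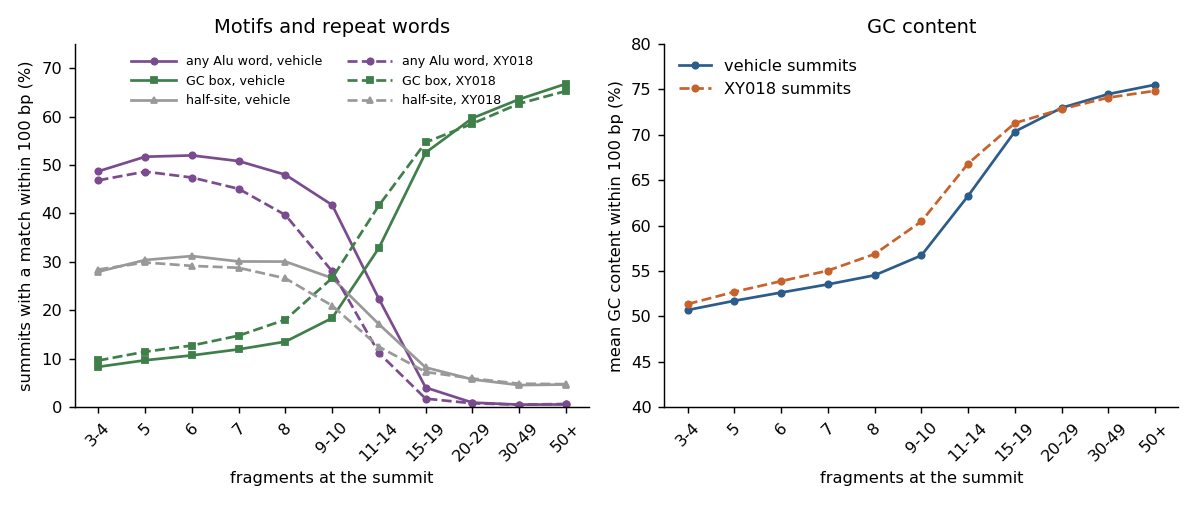
Left, percent of summits with a match within 100 bp (y axis) to any Alu word (purple), the GC box (green) or the nuclear receptor half-site hexamer (grey) by fragments at the summit (x axis), with vehicle as solid and XY018 as dashed lines; right, mean GC content in percent. Alu words are common at summits of few fragments and reach 0.70% over the strong vehicle summits, where the GC box is present at 62.7% and mean GC content is 74.1%.

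The hexamer AGGTCA was searched because it is the core of the RORγ site. It was present at 31.3% of vehicle-only, 15.6% of kept and 5.04% of strong vehicle summits, with 14.2% in windows 1 kb away and 9.57% at protein-coding starts. The Alu word AGGTCAGGA contains this hexamer, and 77.4% of the vehicle summits with the hexamer also held an Alu word. Among summits without Alu words it was present at 7.62% (7.38-7.86) of kept and 12.0% (11.8-12.3) of vehicle-only summits. The RORE core was rare. It was present at 88 kept and 274 vehicle-only summits, 0.145% and 0.258%, and at 14 of the strong vehicle summits, 0.0759% (0.0415-0.127). Windows 1 kb away held it at 0.550% and protein-coding starts at 0.373%. Within classes of vehicle fold the share at kept summits differed from that at vehicle-only summits by -0.0354 points (-0.0941 to 0.0234), an interval that includes 0. The sign of this difference depended on the setting, with 0.0884 points (0.0226 to 0.154) among regions with q of at most 1e-05 and -0.113 points (-0.156 to -0.0702) without fold classes. Of the 362 vehicle summits with the RORE core 24.3% (19.98-29.1) were kept, and of 269 XY018 summits 40.1% (34.2-46.3) had a vehicle region, against 36.4% and 47.7% of all regions. These are matches of letters, not sites shown to be bound.

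Of the other motifs searched on both strands, the E-box CACGTG, used by MYC and by the clock factors, was present at 4.82% of kept and 2.98% of vehicle-only summits, with 4.74% at protein-coding starts. The ETS motif CCGGAAG was present at 2.61% and 0.830%, with 8.17% at protein-coding starts, and the CTCF core at 0.271% and 0.0545%. The sterol regulatory element TCACNCCAC, the site of SREBP factors, was present at 1.81% of kept and 3.67% of vehicle-only summits, with 1.61% in windows 1 kb away. TATAAA was present at 2.51% and 7.59%, with 14.8% in windows 1 kb away, and CCAAT, the NF-Y site, at 9.31% and 14.3%, with 23.3% there. TATAAA and CCAAT were thus less frequent at the summits of both kinds than in the sequence around them.

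Summits of shared regions stood close to each other. Over 57127 pairs in which each region was the other's touching region of highest pileup, the median distance between the vehicle and the XY018 summit was 53 bp, with quartiles of 21 and 118 bp. It was 80 bp where the pair had 6 to 15 fragments over both libraries, 53 bp at 16 to 39, 35 bp at 40 to 79 and 29 bp at 80 or more. At 80 or more fragments it was 33 bp at promoters and 22 bp over 10 kb from starts. There was no common direction. Relative to the nearest transcript within 1000 bp, the XY018 summit lay downstream of the vehicle summit in 50.5% and upstream in 48.7% of 19642 pairs, with a median shift of 1 bp (0-2). Both summits sat just inside the transcript, at medians of 47 bp and 52 bp downstream of the start. The median XY018 region was 0.959 times as wide as its vehicle partner.

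At shared regions the pileup was compared as the number of fragments over the genome-wide background of each library, and a ratio of XY018 to vehicle of 1 means equal pileup over background. Over all 17319 pairs with at least 40 fragments in both libraries together, the median ratio was 1.005 (1.0001-1.009). It was 0.977 (0.971-0.983) at 9649 promoter pairs and 1.046 (1.03-1.06) at 2897 pairs over 10 kb from starts. The level of these medians depended on which library chose the pairs. At promoters it was 0.947 (0.944-0.953) for regions with at least 20 vehicle fragments and 1.011 (1.007-1.016) for regions with at least 20 XY018 fragments, which turns the direction. For the distal sites the medians were 1.01 and 1.08. The promoter value was below the distal value under each of the 3 choices.

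GC content ordered the ratio at promoters and at distal sites alike. At promoters the median ratio was 1.11 where the vehicle summit had under 70% GC (n = 1149), 1.03 at 70 to 75% (n = 2738), 0.953 at 75 to 80% (n = 3649) and 0.907 at 80% or more (n = 2113). At distal sites the medians were 1.11 (n = 769), 1.054 (n = 1432), 0.989 (n = 551) and 0.943 (n = 145). The distal median was equal to the promoter median in the class of lowest GC content and above it in the other 3. Grouping by the XY018 summit gave 1.08, 1.04, 0.965 and 0.921 over all pairs, in the same order. With at least 80 fragments the order was again 1.06, 1.03, 0.970 and 0.924. The cause of this order was not tested.

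**Figure D4:**
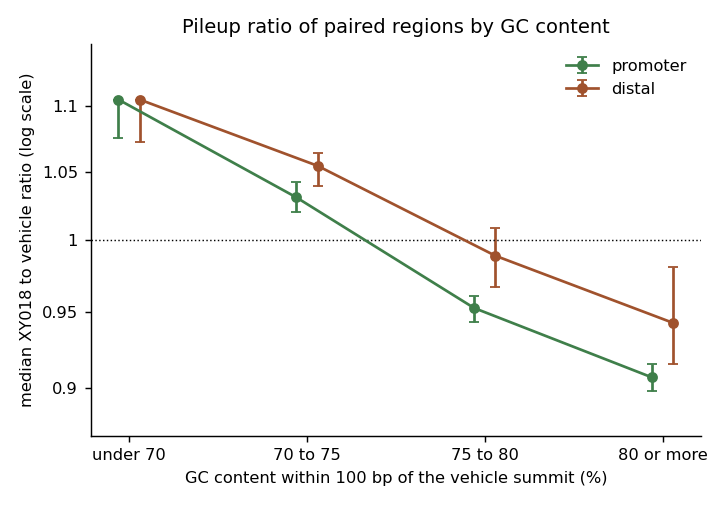
Median XY018 to vehicle ratio of pileup over background (y axis, log scale) by GC content within 100 bp of the vehicle summit (x axis, percent) for pairs at promoters (green) and over 10 kb from starts (brown), with 95% intervals of the median; the dotted line marks a ratio of 1. The promoter median goes from 1.11 under 70% GC to 0.907 at 80% or more, and the distal median from 1.11 to 0.943.

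Most promoters kept their call. Of 20090 protein-coding genes, 11550 had a region in the promoter with both treatments, 57.5%, and 6698 with neither. A region was called at 62.7% of the promoters with vehicle and at 61.5% with XY018. A region was called with vehicle only at 1039 promoters, 5.17%, and with XY018 only at 803, 4% of the genes. With the vehicle list shortened to the length of the XY018 list the order of these counts turned, with 837 promoters called with vehicle only and 955 with XY018 only. Mean GC content of the promoter was 62.8% where both libraries had a region, 56.2% and 57.4% where only vehicle or only XY018 had a region and no region of the other library touched it, and 52.5% where neither did.

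The single-library promoters of highest fold were sites present in both libraries. All 10 genes of highest vehicle fold among vehicle-only promoters, and all 10 of highest XY018 fold among XY018-only promoters, had a region that touched a region of the other library outside the promoter window. HOXA2, a homeobox gene of hindbrain and neural crest patterning, had 94 vehicle fragments and touched an XY018 region of 80 fragments whose summit was 4 bp away. AKT1S1, which encodes the mTORC1 inhibitor PRAS40, had 66 vehicle fragments against 61, and SOX14, which encodes a SOX family transcription factor, 46 against 42. The others were IER5, OR1R1P, H1-7, ANKRD65, TBC1D10C, BEST2 and SSR1. On the XY018 side JPH4, which encodes a junctophilin, had 65 XY018 fragments and touched a vehicle region of 73, SHISA7 had 61 against 69, and EOMES, a T-box factor gene, 28 against 27. The remaining genes there were PDZRN4, RNF222, ZNF629, SLC25A27, EZHIP, CT47C1 and SHISA3. Over these 20 genes the ratio of XY018 to vehicle pileup over background was lowest at SSR1 with 0.768 (0.442-1.31) and highest at PDZRN4 with 1.54 (0.980-2.43). The summits of the touching regions lay between 1 bp (SOX14) and 642 bp (ANKRD65) apart. The interval of all 20 ratios includes 1, and the change of call was a change in where a region ended.

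In all, 138 of the 1039 vehicle-only promoters (13.3%) and 86 of the 803 XY018-only promoters (10.7%) had such a touching region. The remaining 901 and 717 promoters had a median of 6 fragments in either library, and at most 19 and 26. Only 83 (9.21%) and 72 (10.0%) of them had at least 10 fragments. The genes of highest fold among them, taken by a rule added after the values were seen, were DCUN1D5, which encodes a factor of cullin neddylation, with 18 vehicle fragments, ZNF195 with 14, the 1 region at ADAL and LCMT2 with 14, and AKAP17A, GDA and USP30 with 13 each. The 1 region at NIFK and TSN had 12, and so did ASF1A, which encodes a histone chaperone. On the XY018 side they were DNAAF11, which encodes a factor of ciliary dynein assembly, with 26 fragments, C1orf87 with 25, TFDP3 with 21, STX6 with 19, KRT19, a keratin of luminal epithelium, with 16, and ZNF805 with 15. PDCL2 had 13, and the 1 region at MED19, TMX2 and ENSG00000288534 had 13.

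Cholesterol biosynthesis genes were read first because the study asked how RORγ acts on this pathway. Of 21 genes of the pathway, 16 had a promoter region with vehicle and 13 with XY018, against 62.7% and 61.5% of all genes. A call with vehicle only was found at 3, against 5.17% of all genes, and at none with XY018 only, against 4%. CYP51A1, the lanosterol demethylase, was among the 3 with 23 vehicle fragments at chr7:91763136-91763693. It touched an XY018 region of 20 fragments with a summit 3 bp away, a ratio of 0.961 (0.501-1.83), and the narrower XY018 region, 334 bp against 558 bp, ended outside the promoter window. IDI1, the isopentenyl diphosphate isomerase, had 19 fragments at chr10:1094566-1094930 over a local background of 3.80, a fold of 4.17. HMGCS1, an HMG-CoA synthase, had 4 fragments at chr5:43313080-43313274. So 1 of the 3 was present at the same summit in both libraries and 1 was near the lowest pileup in the list. The RORE core searched here does not match the putative ROREs that the study mutated in its MVK and HMGCS1 reporters. The sequence at the CYP51A1 summit, chr7:91763262-91763462 on the plus strand, in introns of CYP51A1 and of overlapping genes, held the GC box (capitals) and no RORE core.
CYP51A1: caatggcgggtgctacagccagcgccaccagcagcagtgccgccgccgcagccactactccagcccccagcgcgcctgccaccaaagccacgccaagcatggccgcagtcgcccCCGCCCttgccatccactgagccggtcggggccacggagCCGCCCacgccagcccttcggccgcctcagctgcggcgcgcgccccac

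The 13 cholesterol genes called with both treatments had a median ratio of 0.975, against 0.967 over 11170 promoters paired at the same site. ACAT2 had 9 fragments with vehicle and 5 with XY018, and MVK, the mevalonate kinase, 6 and 9. MVD had 46 and 36 fragments, FDFT1, the squalene synthase, 22 and 22, and SQLE, the squalene epoxidase, 17 and 15. LSS had 23 and 25, TM7SF2 32 and 19, LBR 38 and 30, NSDHL 13 and 15, EBP 15 and 14, and DHCR7 23 and 20. Set over background, 7 of the 13 ratios were below 1 and 6 were above, against 6155 of 11170 below 1 over all paired promoters. PMVK, FDPS, MSMO1, HSD17B7 and SC5D had no region in either library.

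Of 18 promoters of sterol regulators and carriers, 15 were called with vehicle, against 62.7% of all genes. The same 15 were called with XY018, against 61.5% of all genes. Over all protein-coding promoters called with vehicle 8.26% had no call with XY018, a share too small for 15 genes to show a difference from it. The median ratio was 1.11 against 0.967 over all paired promoters. Of the 15 ratios 7 were below 1, against 6155 of 11170 over all paired promoters. LRP8, a lipoprotein receptor gene, had 74 fragments with vehicle and 66 with XY018. INSIG1, which encodes the protein that retains SCAP in the endoplasmic reticulum, had 42 and 31, SREBF2 33 and 41, and SREBF1 29 and 36. SCAP itself, the escort of the SREBPs, had 13 and 27 fragments, a ratio of 2.30 (1.14-4.85). This ratio was among the 8 highest of 6854 promoters, and its interval was not adjusted for that choice. ABCA1, the cholesterol exporter, had 5 and 12. NR1H2, which encodes LXRβ, had 41 and 28, and MYLIP, a ubiquitin ligase gene, 30 and 17.

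Clock genes include known ROR targets. With vehicle 17 of the 20 promoters had a region, and with XY018 16, against 62.7% and 61.5% of all genes. CRY1, a repressor of CLOCK and BMAL1, was the vehicle-only gene, against 5.17% of all genes, with 6 fragments, and 3 genes, among them NR1D1 and CIART, had no region. BMAL1, the textbook RORE target, had 24 fragments with vehicle and 14 with XY018, a ratio of 0.645 (0.308-1.30). The interval of this ratio includes 1, and neither summit at BMAL1 held the RORE core. CLOCK had 17 and 12 at summits 775 bp apart, NPAS2 37 and 24, and DBP, a target of CLOCK and BMAL1, 41 and 25. PER1 had 33 and 30, PER2 20 and 10, PER3 29 and 28, NR1D2, which encodes a REV-ERB repressor of the same elements, 22 and 22, and HLF 25 and 16. CRY2 had 19 and 17, TEF 23 and 24, and NFIL3 24 and 21. BHLHE40 and BHLHE41, which encode repressors of CLOCK and BMAL1, had 8 and 12 and 9 and 9. The ROR genes themselves had 39 and 26 at RORA and 40 and 33 at RORB. The median ratio of the 16 was 0.940, against 0.967 over all paired promoters. Of the 16 ratios 10 were below 1, against 6155 of 11170 over all paired promoters.

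**Figure D5:**
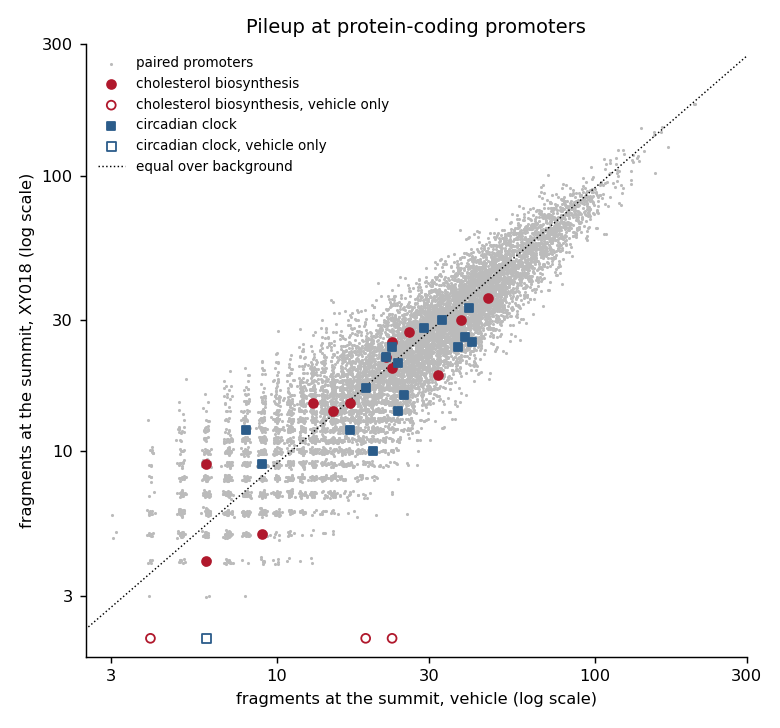
Fragments at the summit with vehicle (x axis, log scale) against XY018 (y axis, log scale) at protein-coding promoters called with both treatments at the same site (grey, moved slightly at random so that equal counts can be seen), with cholesterol biosynthesis (red circles) and clock (blue squares) genes; the dotted line marks equal pileup over background. Open symbols at the lower edge are genes called with vehicle only and have no XY018 value there, and CYP51A1 at 23 fragments is drawn there although it touches an XY018 region of 20 fragments; the filled symbols lie on both sides of the line.

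Of 14 Th17 genes that RORγt regulates in lymphocytes, 4 were called with vehicle and 6 with XY018, against 62.7% and 61.5% of all genes. The XY018-only calls, at 4% over all genes, were IL12RB1 with 6 fragments and CCR6 with 4. IRF4 had 81 fragments with vehicle and 67 with XY018, MAF 68 and 63, IL1R1 15 and 14, and STAT3 11 and 7. The other 8 had no region in either library.

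Of 48 nuclear receptor genes, 40 had a region at the promoter with vehicle and 39 with XY018, against 62.7% and 61.5% of all genes. NR1H4 and NR2E3 were called with vehicle only, at 5 fragments each, and RARG with XY018 only, at 8 fragments that touched a vehicle region of 12. HNF4G had 67 and 70 fragments and PGR 46 and 45. PPARD, which encodes a fatty acid sensor, had 46 and 25, a ratio of 0.601 (0.354-0.998), and PPARA 43 and 24, a ratio of 0.617. Over the 37 paired receptor genes the ratios ran from 0.524 to 1.77, and 19 were below 1. Their median was 0.989, against 0.967 over all paired promoters. Of 16 genes of receptor cofactors, 14 were called with both treatments, against 57.5% of all genes. Among them KDM1A, which encodes the lysine demethylase LSD1, had 49 and 24 fragments, a ratio of 0.541 (0.318-0.899), and NCOR1, which encodes a corepressor, had 7 and 16. These intervals cover 1 gene each and were not adjusted for the number of genes.

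Promoters of marker genes describe the line and not its expression. Of 15 basal markers 9 were called with vehicle and 10 with XY018, against 62.7% and 61.5% of all genes. SOX10 had 69 and 60 fragments, ITGB4 48 and 54, and EGFR 35 and 34. Of 13 luminal markers 10 were called with vehicle and 9 with XY018. SPDEF with 8 fragments and TFF3 with 4 were vehicle-only, and KRT19 with 16 was XY018-only. KRT8 had 22 and 10 fragments, FOXA1 23 and 30, GATA3 22 and 22, and ESR1 20 and 22.

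Of 25 cell cycle genes, 18 had a region at the promoter with vehicle and 21 with XY018, against 62.7% and 61.5% of all genes. The 3 XY018-only ones, at 4% over all genes, were MCM6 with 14 fragments, which touched a vehicle region of 21, PLK1 with 8 and CCNB1 with 4. CDKN2A had 77 and 62 fragments, CCNE1 72 and 58, MCM7, a helicase subunit gene, 20 and 10, and TOP2A, the topoisomerase gene, 4 and 9. Counts of larger families are to be read against 5.17% of all genes called with vehicle only and 4% with XY018 only. Zinc finger genes were called with vehicle only at 38 of 508 (7.48%) and with XY018 only at 28 (5.51%), and ribosomal protein genes at 7 and 3 of 85. Genes of oxidative phosphorylation stood at 8 and 6 of 83 and the proteasome at 2 and 2 of 39. HOX genes stood at 4 and 1 of 39, with 3 of the 5 touching a region of the other library, and clustered protocadherins at 4 and 2 of 53. Replication histones stood at 2 and 3 of 71. Olfactory receptor genes, which act in smell, were called in both libraries at 5 of 399 and in a single library at 12 and 11.

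The promoters named next had the highest vehicle pileup among those called with both treatments. The region shared by DHX32 and FANK1 had 209 fragments with vehicle and 183 with XY018. CACNA1B, a calcium channel gene, had 152 and 136. On chromosome 5, TERT, the telomerase gene, had 159 and 142 fragments, FBXL7 169 and 129, MARCHF11 162 and 147, SLC9A3 155 and 145, AHRR 142 and 145, and TRIO 142 and 121. ADCY2, an adenylate cyclase gene, had 153 and 102, a ratio of 0.737 (0.568-0.953), an interval not adjusted for the number of genes. These 7 lay in the stretch of raised local background on chromosome 5 described above.

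At 6854 protein-coding promoters the paired regions had at least 40 fragments in both libraries together, and the median ratio was 0.955. A ratio of at most 1/1.5 was found at 385 of them, 5.62%, and a ratio of at least 1.5 at 177, 2.58%. Of the 6854 intervals at 95%, 121 lay below 1 and 69 above 1, and the ratios ran from 0.399 to 2.58. Counting error alone leaves some of so many intervals below or above 1, so these are not counts of changed promoters. Intervals were not adjusted for the number of promoters or for the choice of the extremes named here. GOLM1, which encodes a Golgi membrane protein, was lowest, with 36 fragments with vehicle and 13 with XY018. The region shared by RIBC2 and SMC1B had 33 and 12, CD55, a complement regulator gene, 30 and 11, and DBF4, which encodes the activator of the CDC7 kinase, 35 and 13. DCHS1 had 46 and 18, and PDE6B 38 and 15. The region shared by THBS3 and MTX1 was highest, with 15 and 35 fragments and a ratio of 2.58 (1.37-5.08). TAOK1 had 12 and 28 fragments, SMC3, a cohesin subunit gene, 15 and 32, STK17B 13 and 27, FKBP2 14 and 29, and ZNF668 14 and 28. SCAP, given above, was among the highest 8. With any touching region taken as the partner the ratios ran from 0.106 to 15.1, and 13 of the 16 most extreme pairs joined pieces of a divided region, so pairs were taken only where each region was the best partner of the other, a choice made after seeing these values.

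Regions of the other antibodies followed the shared side. An SREBP2 region of vehicle-treated cells touched 72.3% of kept and 13.1% of vehicle-only RORγ regions, and 72.7% of present and 16.7% of XY018-only regions. It touched 99.7% of the vehicle regions with at least 20 fragments, 18376 of 18436. An H3K27ac region of the same cells, a mark of active promoters and enhancers, touched 37.2% of kept and 4.91% of vehicle-only regions, and 65.8% of those with at least 20 fragments. Within classes of vehicle fold the differences between kept and vehicle-only regions were 33.7 points (33.1-34.3) for SREBP2 and 11.7 points (11.3-12.1) for H3K27ac. Among regions with q of at most 1e-05 the H3K27ac difference was 12.3 points (-0.292 to 24.9), an interval that includes 0. At 6 to 8 fragments 51.0% (50.2-51.8) of vehicle regions with an SREBP2 region were kept, and 17.6% (17.3-18.0) of those without. With and without an H3K27ac region the shares were 45.5% (44.1-46.8) and 23.7% (23.3-24.0). Input libraries were not analysed here, so places with signal under any antibody were not set apart.

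The 21 vehicle and 23 XY018 regions with at least 20 fragments and no partner were for the most part of 2 kinds. A local background over 4 fragments was found at 16 of the vehicle and 14 of the XY018 regions. The satellite word ATTCCATTCC was present at 3 and 2 of the summits, against 0.259% and 0.357% of all summits. A local background under 2.5 fragments was found at 4 vehicle and 9 XY018 regions. The 4 vehicle regions were those near LFNG (22 fragments), KSR1P1 (21), MTFR1L (20) and RNA5SP178 (20), and an XY018 region lay 183 bp from that at MTFR1L. The 9 XY018 regions were those at DNAAF11 (26 fragments), C1orf87 (25), RNF157-AS1 (24), LURAP1L (22), TNKS1BP1 (21), TFDP3 (21), GSE1 (20), SPATA6L (20) and ENSG00000236867 (20). All 9 touched an SREBP2 region of vehicle-treated cells, as did 99.7% of all XY018 regions with at least 20 fragments. Of the 4 vehicle regions, those near LFNG, KSR1P1 and MTFR1L touched one too, and that near RNA5SP178 did not. The vehicle region nearest to the 9 XY018 regions lay 139 bp away, at RNF157-AS1. At LURAP1L and C1orf87 the nearest lay 22052 bp and 31320 bp away.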

How the data were processed

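ChIP-seq of RORγ was made from HCC70 cells in vehicle or XY018, 1 library each. The submitters' processing notes name Bowtie2, MACS2 2.1.0 and bedtools with hg19, while the methods name BWA for alignment, and tags were mapped uniquely and deduplicated before peaks were called per library with MACS2. The deposited lists give for each region a fold enrichment over local background (a ratio), the −log10 p and −log10 q of the peak caller, a display score and the summit offset, all made by the authors. Input libraries (6) were not used here. From the deposited fold and −log10 p the Poisson model of MACS2 was solved for whole fragments at the summit and for the local background, and the result was whole, within 5% of a step, for 100% of regions in both lists. Total reads are not given by the lists, so depth was read from the background, 4.04 and 3.65 tags per kb with fragments of 195 bp.

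Transcript starts came from GENCODE 44 lifted to GRCh37, with 20090 protein-coding genes, and letters from GRCh37. A promoter window began 1000 bp upstream of a start and ended 100 bp after it. Matches to 18 motifs on either strand were counted 100 bp to each side of summits, in windows 1 kb to either side and at protein-coding starts. Shares have exact binomial (Clopper-Pearson) intervals, counts Poisson intervals and medians order-statistic intervals at 95%, for counting error only. Ratios of pileup divide fragments by the genome-wide background of each library. Differences were averaged over 10 classes of vehicle fold, and those between kept and vehicle-only regions over the 9 that held both, since every region of the class of highest fold was kept. With 1 library per group no test was made. Scripts were tested on simulated data. Tools were Python 3.11.15, numpy 2.4.6, scipy 1.17.1, pandas 2.3.3, pysam 0.24.0 and matplotlib 3.10.9.

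The members and gene lists were chosen with earlier results of these data known. Named genes were the 10 of highest fold among promoters called with vehicle only or with XY018 only, the 10 of highest pileup among promoters called with both, the 8 lowest and 8 highest ratios among promoters with at least 40 fragments, genes of the lists whose call differed, and up to 6 of each list with the highest pileup, with up to 3 changed genes of larger families. Other list members are named with them so that a list can be read whole. Alternatives were other q limits, lists of equal length, other overlap rules, other promoter windows, no classes, a 50 bp window and another choice of pairs. A few genes and a sequence that these rules name are not reported here.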

Additional observations from a re-analysis of the deposited data

How the results depend on the processing

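Of 56 values recomputed under the alternatives, 21 differed from the reported value by less than its counting interval or, for counts of genes, by less than 1.5 times, 34 moved by more and 1, a pileup ratio, passed to the other side of 1. Among those that moved, the RORE core difference, whose interval includes 0, changed sign. With q of at most 0.01 in both lists the number of regions changed by -21.7%, 45.8% of vehicle and 59.6% of XY018 regions were shared, the differences between kept and vehicle-only or promoter and distal regions were 17.7 points for promoters, 6.67 points for GC content and 16.6 points for H3K27ac, and summits of pairs lay 44 bp apart. With q of at most 1e-05 these values were -2.12%, 80.6%, 84.3%, 8.29 points, 3.58 points, 12.3 points and 36 bp, the difference in the RORE core turned from -0.0354 to 0.0884 points with an interval above 0, and the interval for H3K27ac included 0. Lists of equal length gave shares of 42.7% and 43.9%, 6.47 points for GC content and 13.3 points for H3K27ac. An overlap of at least 50% of the shorter region gave 33.0% and 43.5%, 13.96 points for promoters and 48 bp, and summits within 100 bp gave 24.6%, 31.7% and 6.81 points. Without fold classes the differences were 47.9 points for promoters, 13.4 for GC content, -0.113 for the RORE core and 32.3 for H3K27ac, and a window of 50 bp gave 6.54 points of GC content. The median pileup ratio at promoters turned from 0.947 to 1.01 when XY018 pileup chose the pairs, and the distal ratio was then 1.08. With at least 40 fragments over both libraries, a choice made after seeing the data, they were 0.977 and 1.046. Counts of promoters called with vehicle only ran from 814 to 1447, and with XY018 only from 576 to 955. The causes of these moves were not tested. No paired analysis was possible because each treatment had 1 library. Most regions rest on few fragments, so an absent partner at low pileup says that none was detectable at this depth.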
